A study of Mus musculus with 54 samples.

Results

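The mitosis genes described here are 40 genes of chromosome condensation, spindle assembly, chromosome segregation and cytokinesis, measured by RNA sequencing in naive CD4+ T cells of the mouse before and after stimulation through the TCR and CD28. They were chosen by name, for their known function: mitotic cyclins, kinases, kinesins, kinetochore and checkpoint genes, and their partners. The count table of each experiment lists 55385 genes, of which 32290 in the CD5/CD6 experiment and 27780 in the LAT experiment had at least 1 read. All 40 members were among the genes with reads in both experiments.

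The CD5/CD6 experiment compared WT, Cd5-/-, Cd6-/- and Cd5-/-Cd6-/- cells, and the LAT experiment compared WT (hDTR+) with Lat-/- (hDTR-) cells, all from lymph nodes and spleens of C57BL/6 mice that were 8 to 10 weeks old. Cells were taken directly after purification (0 h) or after 4 h or 20 h on plate-bound anti-CD3 (3 µg/ml) with soluble anti-CD28 (1 µg/ml), with 3 libraries in each of 18 groups and 54 libraries in all. CD5 and CD6 are surface receptors of T cells that modulate TCR signals, and LAT is the membrane adaptor on which much of the TCR signal is assembled. The study asked how far the transcriptional response to TCR-CD28 stimulation depended on each of these proteins. The Cd5-/- mice carry an older targeted allele backcrossed to C57BL/6, the Cd6-/- and Cd5-/-Cd6-/- mice are edited lines, and the Lat deletion was made by the maT-Cre transgene, which acts in T cells. Both kinds of cell in the LAT experiment came from mice with the floxed allele and this transgene, in which cells that kept the allele express a human diphtheria toxin receptor. Lymph nodes and spleens were pooled, the cells from the CD5/CD6 experiment were isolated with magnetic beads, those of the LAT experiment were sorted by flow cytometry, and the 2 experiments were never fitted together. The study describes the samples of a condition as independent, and neither it nor the labels say whether they came from separate mice, so p-values measure the spread between these libraries, which may be technical.

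A cell enters mitosis when the kinase CDK1, bound to cyclin A or cyclin B, is activated by CDC25 phosphatases. Condensins and topoisomerase II compact the chromosomes, kinesins and the Aurora and Polo kinases build the spindle, and kinetochores attach it to the centromeres. The spindle checkpoint holds back the anaphase-promoting complex, a ubiquitin ligase that works with CDC20 and the E2 enzyme UBE2C, until every chromosome is attached, and the chromosomal passenger complex then steers cytokinesis. Naive T cells rest outside the cell cycle and have to grow and replicate their DNA before a first division, and most of these genes are known to be transcribed late in the cycle, after DNA replication has begun.

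Genes of this kind are known to carry 2 short promoter motifs, the cell cycle homology region (searched here as TTTGAA or TTTAAA) and the CCAAT box, so the 250 bases before the RefSeq start of each gene (GRCm38.p6) were searched on both strands. A promoter was found for 32 of the 40 members. Those not found were Ccna2, Cdc25c, Aurkb, Kif20a, Tpx2, Spc24, Incenp and Smc4. The windows shown belong to 4 members that rose at 20 h (Cdk1, Ccnb1, Cdc20 and Top2a) and to 3 that did not (Cdc25b, Cenpa and Kif23). They are written 5′ to 3′ on the strand of the gene, with both motifs in capitals (a CCAAT box on the other strand reads ATTGG, and TTTGAA reads TTCAAA).
Cdk1, chr10:69352913-69353162, minus strand: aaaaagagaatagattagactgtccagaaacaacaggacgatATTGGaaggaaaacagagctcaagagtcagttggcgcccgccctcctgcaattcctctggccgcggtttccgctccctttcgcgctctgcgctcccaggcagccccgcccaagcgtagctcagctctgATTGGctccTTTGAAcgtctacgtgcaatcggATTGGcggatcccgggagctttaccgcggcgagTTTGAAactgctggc
Ccnb1, chr13:100786487-100786736, minus strand: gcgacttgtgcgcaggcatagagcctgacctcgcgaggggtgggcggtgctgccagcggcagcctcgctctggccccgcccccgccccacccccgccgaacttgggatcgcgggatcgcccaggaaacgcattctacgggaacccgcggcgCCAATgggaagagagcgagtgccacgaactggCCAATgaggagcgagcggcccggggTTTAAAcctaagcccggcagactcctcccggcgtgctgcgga
Cdc20, chr4:118437344-118437593, minus strand: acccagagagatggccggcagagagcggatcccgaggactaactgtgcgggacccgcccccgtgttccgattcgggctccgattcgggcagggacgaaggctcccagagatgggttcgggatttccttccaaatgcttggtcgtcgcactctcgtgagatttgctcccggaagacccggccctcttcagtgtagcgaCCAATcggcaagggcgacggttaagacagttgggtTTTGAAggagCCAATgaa
Top2a, chr11:99024190-99024439, minus strand: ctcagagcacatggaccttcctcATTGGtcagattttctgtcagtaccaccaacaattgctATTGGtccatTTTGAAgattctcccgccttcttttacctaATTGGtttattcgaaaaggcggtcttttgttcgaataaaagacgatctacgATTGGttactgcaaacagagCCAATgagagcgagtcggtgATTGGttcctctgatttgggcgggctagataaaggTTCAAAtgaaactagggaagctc
Cdc25b, chr2:131186698-131186947, plus strand: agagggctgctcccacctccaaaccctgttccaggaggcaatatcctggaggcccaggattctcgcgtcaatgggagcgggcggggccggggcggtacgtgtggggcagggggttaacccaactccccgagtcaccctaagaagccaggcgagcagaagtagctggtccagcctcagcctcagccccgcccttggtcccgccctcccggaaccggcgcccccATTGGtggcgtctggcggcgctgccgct
Cenpa, chr5:30666636-30666885, plus strand: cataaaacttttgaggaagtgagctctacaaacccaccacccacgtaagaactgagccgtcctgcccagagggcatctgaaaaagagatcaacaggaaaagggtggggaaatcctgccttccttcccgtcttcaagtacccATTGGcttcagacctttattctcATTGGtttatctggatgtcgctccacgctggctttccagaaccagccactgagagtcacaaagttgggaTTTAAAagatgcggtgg
Kif23, chr9:61946800-61947049, minus strand: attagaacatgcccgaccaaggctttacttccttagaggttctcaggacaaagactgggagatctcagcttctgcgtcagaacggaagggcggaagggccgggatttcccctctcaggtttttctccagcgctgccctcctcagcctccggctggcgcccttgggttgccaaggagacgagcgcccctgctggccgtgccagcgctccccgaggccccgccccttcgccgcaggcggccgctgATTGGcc

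A CCAAT box was present in 24 of the 32 member promoters (75%) and in 10133 of 27025 promoters of all genes (37.5%). At least 2 CCAAT boxes were present in 15 member promoters (46.9%) and in 11.5% of all promoters. A cell cycle homology region in either spelling was present in 16 (50%) and in 28.1%, and both motifs together in 14 (43.8%) and in 10.1%. The windows of Cdk1, Ccnb1, Cdc20 and Top2a hold both motifs, with 6 CCAAT boxes in that of Top2a. Those of Cdc25b and Kif23 hold a single CCAAT box and no cell cycle homology region in either spelling, and Cenpa has both. The windows of Anln, Mad2l1, Ncaph, Ndc80, Nuf2 and Nusap1, which rose at 20 h, hold neither motif, so the letters did not separate members that rose from those that did not. Some windows lie partly inside the gene as counted, such as those of Cenpa and Ccnb1, and those of Kif2c and Kif4 lie wholly inside it. These are matches of letters and were not tested.

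Library totals were 20554354 to 45222554 counts in the CD5/CD6 experiment and 17784644 to 28501095 in the LAT experiment, so that 3 counts were worth 0.0663 to 0.146 CPM and 0.105 to 0.169 CPM, respectively (CPM is used in its usual sense, with the library total scaled by its TMM factor). Such limits cover counting error only. In the LAT experiment Lat was at 5.69 to 19.1 CPM in Lat-/- libraries and at 92 to 351 CPM in WT libraries. At 0 h, library 2 labelled Cd5-/- and library 2 labelled Cd6-/- went against their labels: Cd5 was at 129, 720 and 105 CPM in the libraries labelled Cd5-/- and at 724, 173 and 719 CPM in those labelled Cd6-/-. Cd6 was at 1298, 329 and 1084 CPM and at 350, 1203 and 251 CPM in the same libraries. Comparisons of these genotypes that use 0 h libraries are therefore of "libraries labelled" so, and were also made without those 2 libraries. Transcripts of other cells were present at 0 h and 4 h in the CD5/CD6 experiment. Its erythroid markers summed to 288 to 4867 CPM and its B cell markers to 68.2 to 596 CPM at 0 h, against 2.5 to 75.8 and 1.3 to 4.8 CPM at 20 h, and in the LAT experiment these sums stayed within 3.43 and 4.87 CPM. How much of the low levels of the mitosis genes at 0 h and 4 h came from such cells was not tested.

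Before stimulation most mitosis genes were barely transcribed, with a few plain exceptions. Per kilobase of exon, Smc4, an ATPase subunit of the condensins, stood far above the other members in WT cells from the CD5/CD6 experiment at 0 h (101 ± 25.2 RPKM, mean ± SD, n = 3). Cdc25b, a CDK-activating phosphatase, followed at 16.7 ± 0.511 RPKM, then Smc2, the partner ATPase of Smc4, at 6.96 ± 0.351 RPKM. Cenpa, the centromeric histone H3, was at 5.91 ± 0.425 RPKM and Incenp, the scaffold of the chromosomal passenger complex, at 5.41 ± 0.543 RPKM. The spreads of Smc2 and Cenpa did not touch, and those of Cenpa and Incenp met. Smc4 alone made up 54 to 68% of the summed CPM of the 40 members in the WT libraries of that experiment at 0 h and 68 to 71% in those of the LAT experiment.

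At 20 h nearly the whole set had risen in WT cells. With edgeR's quasi-likelihood test and a call that needed more than a 2-fold change with an adjusted p below 0.05, 35 of 40 members were higher and 2 lower at 20 h than at 0 h in the CD5/CD6 experiment, where 12.3% of all genes tested were higher and 17.3% lower. In the LAT experiment 36 were higher and 2 lower, with backgrounds of 10.8% and 12.7%. The median log2 fold change of the members was 3.25 and 4.13, respectively, while the median of all genes averaging at least 10 counts was −0.07 in both. The call was the same in both experiments for 39 members, the exception being Ccnb2. In bulk RNA a change in the number of cells that express a gene and a change in RNA per cell cannot be told apart, here and in every comparison that follows.

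**Figure D1:**
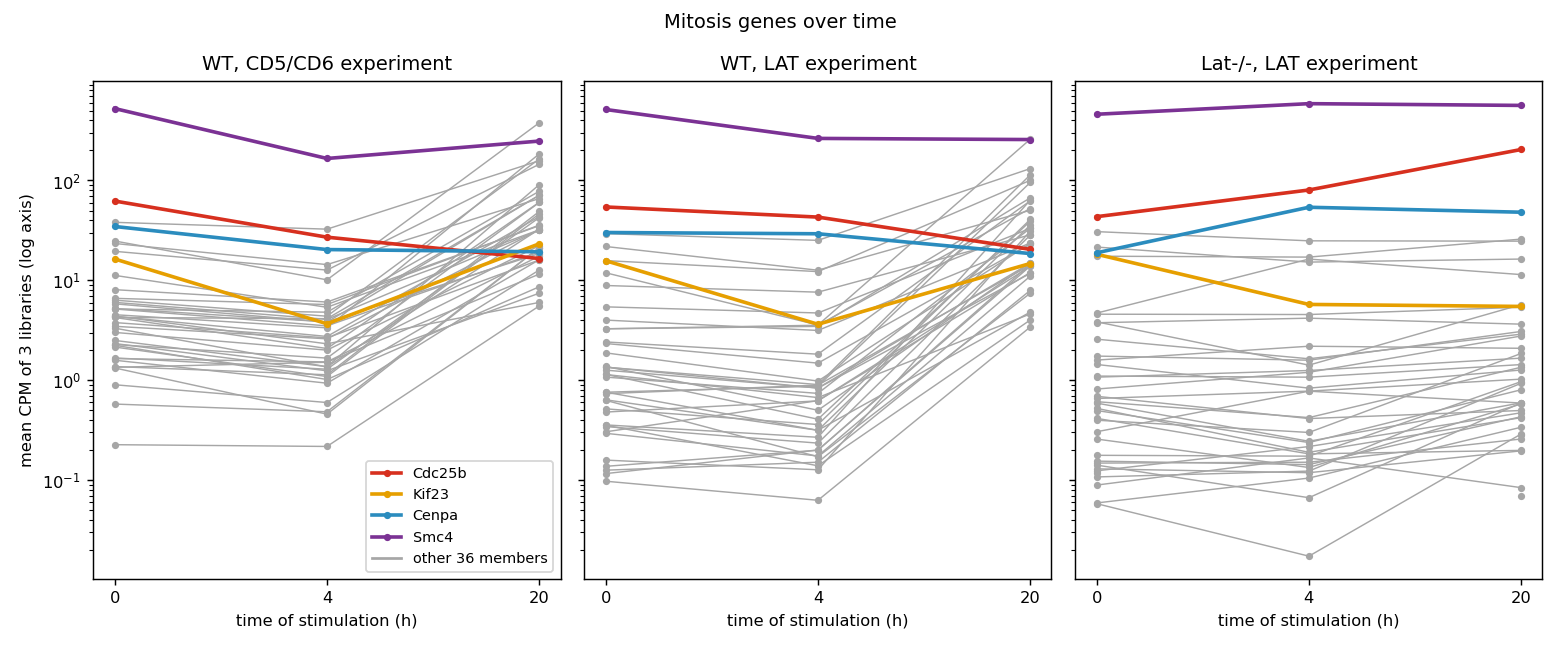
Mean CPM of 3 libraries (log axis) against the time of stimulation for the 40 mitosis genes in WT cells from the CD5/CD6 experiment and in WT and Lat-/- cells from the LAT experiment, 1 line per gene, with Cdc25b, Kif23, Cenpa and Smc4 in color and means of 0 left out. Most gray lines climb between 4 h and 20 h in both WT panels and stay low in Lat-/- cells, where Cdk1 averaged 2.77 CPM at 20 h against 114 CPM in WT cells.

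CDK1, the kinase that drives entry into mitosis, and its cyclins rose, other than cyclin B2 in the CD5/CD6 experiment. Cdk1 was at 6.05, 3.37 and 4.17 CPM in the WT libraries of the CD5/CD6 experiment at 0 h, at 5.38, 2.17 and 2.48 CPM at 4 h and at 181, 186 and 187 CPM at 20 h. Its 20 h libraries differed by little and lay far above all earlier ones (log2 fold change 5.35 ± 0.30, SE, adjusted p = 1.2e-26, edgeR). Ccna2, encoding cyclin A2, went from 10.6, 3.25 and 5.19 CPM to 184, 165 and 144 CPM (4.70 ± 0.34). Ccnb1, encoding cyclin B1, went from 0.898, 0.813 and 0.994 CPM to 14.9, 12.0 and 11.2 CPM (3.81 ± 0.33). Cyclin A2 and cyclin B1 libraries of 0 h and 20 h thus did not overlap. The second B-type cyclin, Ccnb2, was at 6.02, 3.40 and 3.78 CPM and then at 7.84, 5.71 and 4.49 CPM, overlapping ranges, and did not pass the test (0.46 ± 0.35, adjusted p = 0.36, edgeR). It did in the LAT experiment, where it started lower, at 0.745, 1.28 and 1.40 CPM, and reached 4.41, 4.61 and 4.82 CPM (2.01 ± 0.45, adjusted p = 3.3e-05, edgeR).

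The CDC25 phosphatases went opposite ways. Cdc25b fell from 62.9, 60.1 and 63.7 CPM to 19.7, 15.0 and 14.9 CPM in WT cells from the CD5/CD6 experiment (−1.91 ± 0.18), and from 61.3, 46.9 and 54.7 CPM to 20.9, 19.4 and 21.0 CPM in those of the LAT experiment (−1.41 ± 0.16). In both, every 20 h library lay below every 0 h library. Cdc25c went from 0.233, 0.301 and 0.145 CPM to 5.47, 6.05 and 5.14 CPM in the CD5/CD6 experiment (4.61 ± 0.46), again with no overlap.

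Both genes used most often as markers of cycling cells rose. Top2a, topoisomerase II alpha, went from 27.9, 24.1 and 22.4 CPM to 487, 421 and 227 CPM (3.93 ± 0.26) in the CD5/CD6 set, and from 12.7, 10.8 and 12.2 CPM to 291, 272 and 214 CPM in the LAT experiment (4.44 ± 0.18). Mki67, the Ki-67 chromosome surfactant, went from 15.2, 10.7 and 7.81 CPM to 44.0, 42.1 and 10.0 CPM in the CD5/CD6 experiment. Library 3 of 20 h lay within the range of the 0 h libraries, and the increase passed the test with edgeR (1.52 ± 0.49, adjusted p = 0.0083) but not with DESeq2 (adjusted p = 0.101). In the LAT experiment Mki67 went from 2.04, 1.28 and 0.805 CPM to 22.1, 14.7 and 8.13 CPM with no overlap (3.45 ± 0.34).

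All 6 mitotic kinases rose in both experiments. Aurkb, the kinase of the chromosomal passenger complex, went from 3.23, 1.36 and 2.93 CPM to 105, 82.2 and 85.1 CPM in the CD5/CD6 set (5.18 ± 0.29), and Bub1, a kinetochore kinase of the checkpoint, from 1.93, 1.26 and 0.921 CPM to 56.3, 50.3 and 40.3 CPM (5.17 ± 0.32). Plk1, the Polo kinase, went from 3.79, 2.29 and 2.96 CPM to 28.1, 24.1 and 14.5 CPM (2.89 ± 0.28). Aurka, the spindle pole kinase, had the smallest increase of the 6, from 7.25, 5.36 and 5.46 CPM to 34.6, 31.2 and 29.9 CPM (2.41 ± 0.22). Ttk, which encodes the checkpoint kinase MPS1, went from 0.466, 0.783 and 0.485 CPM to 24.4, 24.0 and 15.6 CPM (5.20 ± 0.35). In the LAT experiment Bub1 and Aurkb had the largest increases of all members (7.52 ± 0.38 and 7.41 ± 0.30), followed by Ccna2 (6.94 ± 0.26). Bub1 rested there on 0.0784, 0.0827 and 0.315 CPM at 0 h, near the worth of 3 counts.

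Of 5 kinesins, 4 rose in both experiments. Kif11, the motor that pushes the spindle poles apart, went from 1.80, 1.72 and 1.43 CPM to 24.9, 18.0 and 9.55 CPM (3.41 ± 0.31) in the CD5/CD6 set, and from 0.510, 0.124 and 0.280 CPM to 13.3, 13.6 and 9.10 CPM in the LAT experiment (5.27 ± 0.44). Kif23, a motor of the central spindle, was instead already present at 0 h, at 17.9, 16.1 and 15.2 CPM, dropped to 4.50, 3.94 and 2.59 CPM at 4 h and stood at 30.4, 24.1 and 15.1 CPM at 20 h. Its 0 h and 20 h ranges overlapped, and the change between them stayed below the fold threshold (0.51 ± 0.20 in the CD5/CD6 experiment and −0.09 ± 0.21 in the LAT experiment).

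Among 7 centromere and kinetochore genes, 6 rose in both experiments and Cenpa did not. The call of Cenpf in the CD5/CD6 experiment was lost with DESeq2 (adjusted p = 0.065). Its 20 h libraries were at 12.0, 8.51 and 1.86 CPM, the last of them below all 0 h libraries (3.06, 2.05 and 1.89 CPM). Cenpe, a kinesin of the kinetochore, was at 10.7, 12.4 and 2.78 CPM at 20 h, the last of them within its 0 h range (2.19, 3.07 and 1.45 CPM). Nuf2 and Spc24, subunits of the NDC80 complex that grips microtubules, had the largest increases of the group in the CD5/CD6 experiment (4.67 ± 0.34 and 4.42 ± 0.26). Cenpa was at 37.4, 32.5 and 34.0 CPM at 0 h, at 16.5, 19.9 and 24.6 CPM at 4 h and at 16.0, 18.2 and 23.7 CPM at 20 h, so that all stimulated libraries lay below all resting ones. Its decrease had an adjusted p of 0.00017 (edgeR) and missed the fold threshold (−0.84 ± 0.19). Without replicate 3, Cenpa passed that threshold (−1.03). In the LAT experiment Cenpa went from 30.4, 30.6 and 29.4 CPM to 18.5, 17.8 and 19.4 CPM (−0.70 ± 0.17), short of the fold threshold.

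The 3 chromosomal passenger genes rose by very different amounts. Birc5, survivin, went from 5.92, 2.74 and 4.10 CPM to 62.7, 58.5 and 60.3 CPM in the CD5/CD6 set (3.83 ± 0.31), and Cdca8, borealin, had a log2 fold change of 4.06 ± 0.22. Incenp started at 22.5, 21.6 and 26.1 CPM and reached 83.7, 70.3 and 43.6 CPM (1.49 ± 0.19). Incenp thus had the smallest increase of those that passed the test there. Cdc20, the activator of the anaphase-promoting complex, went from 7.08, 5.66 and 7.08 CPM to 39.5, 32.3 and 35.4 CPM (2.43 ± 0.21), and Mad2l1, the checkpoint protein that holds CDC20, had a log2 fold change of 2.89 ± 0.17. Ube2c rose by less in the CD5/CD6 experiment (1.90 ± 0.33) than either. The 4 spindle and cytokinesis proteins Tpx2, Prc1, Anln and Nusap1 also rose in both experiments, by 1.83 to 3.32 on the log2 scale in the CD5/CD6 experiment and 3.10 to 4.92 in the LAT experiment.

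The condensin subunits parted. Ncapg and Ncaph, subunits particular to condensin I, rose (4.72 ± 0.34 and 3.92 ± 0.21 in the CD5/CD6 experiment), and Smc2 went from 40.3, 37.3 and 36.7 CPM to 201, 176 and 96.9 CPM (2.05 ± 0.22). Smc4, which forms the ATPase pair with Smc2, went the other way, from 547, 644 and 384 CPM at 0 h to 162, 218 and 118 CPM at 4 h and 316, 308 and 120 CPM at 20 h. All its 20 h libraries lay below all its 0 h libraries (−1.08 ± 0.28, adjusted p = 0.00074, edgeR). Without replicate 3, Smc4 no longer passed the fold threshold (−0.93). Smc4 also fell in the LAT experiment from 580, 452 and 509 CPM to 295, 254 and 221 CPM (−1.0 ± 0.15), at the threshold, and was short of it under several alternatives.

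**Figure D2:**
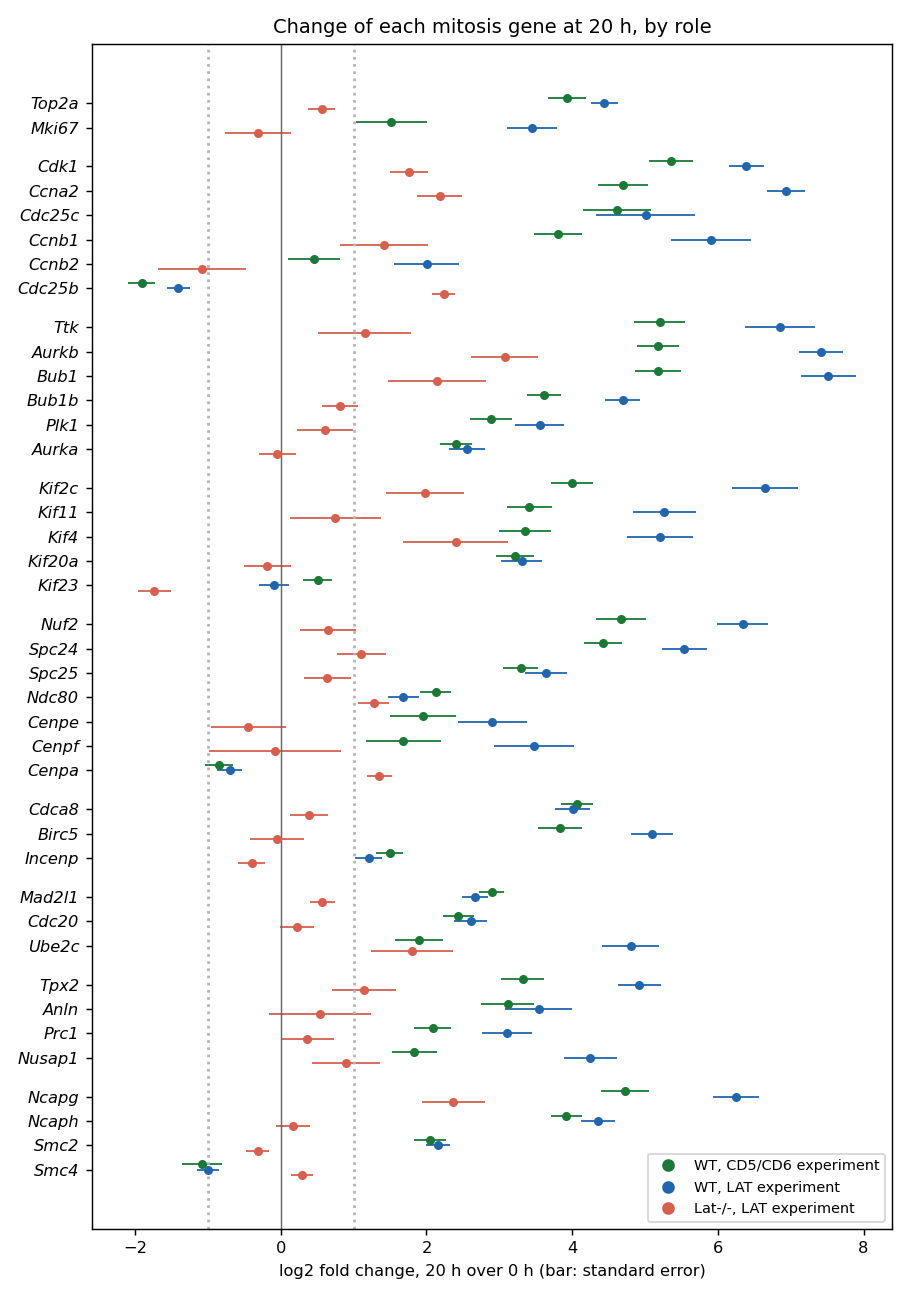
Log2 fold change from 0 h to 20 h of each mitosis gene, grouped by role, in WT cells from the CD5/CD6 experiment (green), WT cells from the LAT experiment (blue) and Lat-/- cells (red), with standard errors as bars (edgeR, 3 libraries per group) and dotted lines at a fold change of 2. Cdc25b, Cenpa and Smc4 lie below 0 in both WT sets and above 0 in Lat-/- cells, and Cdc25c of Lat-/- cells, at 0 counts in all 0 h libraries, is left out.

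In terms of abundance the set was reordered. At 20 h the members with the highest level per kilobase in WT cells from the CD5/CD6 experiment were Smc4 at 47.6 RPKM, Top2a at 42.0 RPKM, Ccna2 at 40.2 RPKM, Cdk1 at 37.5 RPKM and Aurkb at 30.8 RPKM. The summed CPM of the 40 members was 2.81 ± 0.740 times as high at 20 h as at 0 h (ratio of means ± SD, n = 3 each), and without Smc4 it was 6.46 times as high. The share of Smc4 in the sum decreased to 6.5 to 11.9% of the sum at 20 h.

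At 4 h no member had yet risen in WT cells. In the CD5/CD6 experiment 0 members were higher and 7 lower than at 0 h (11.1% of all genes were lower), with a median log2 fold change of −0.58: Kif23 (−2.15), Smc4 (−1.66), Kif2c (−1.53), Top2a (−1.29), Spc25 (−1.29), Cdc25b (−1.20) and Birc5 (−1.03). At an unadjusted p below 0.05 none was higher and 19 were lower, where 11061 of 32290 genes passed in either direction. The LAT experiment had 0 higher and 6 lower members (9.29% of all genes): Kif23 (−2.11), Anln (−1.85), Top2a (−1.73), Birc5 (−1.45), Mki67 (−1.42) and Spc24 (−1.21). These shares are close to or somewhat above those of all genes. From 4 h to 20 h, 37 members rose in the CD5/CD6 experiment and 0 fell, where 8.74% of all genes rose and 12.2% fell. Over the same interval 37 rose and 1, Cdc25b, fell in the LAT experiment, with backgrounds of 7.90% and 9.32%. Scaling by library totals alone moved every log2 fold change from 0 h to 4 h by −0.25 and −0.24 in the 2 experiments, and from 0 h to 20 h by −0.14 in the CD5/CD6 experiment.

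The absence of CD5, CD6 or both left the 20 h response of the set in place. From 0 h to 20 h, 35 members were higher in libraries labelled Cd5-/- (12.5% of all genes), 35 in those labelled Cd6-/- (11.4%) and 35 in Cd5-/-Cd6-/- cells (12.3%). In libraries labelled Cd5-/- and in Cd5-/-Cd6-/- cells 2 members were lower, Cdc25b and Smc4 (17.5% and 18.0% of all genes), and in those labelled Cd6-/- 1 was lower, Cdc25b (16.8%). From 4 h to 20 h, 37 members were higher in each of the 3 knockout genotypes, with backgrounds of 8.06% in Cd5-/-Cd6-/- cells, 8.84% in Cd5-/- cells and 8.26% in Cd6-/- cells. The summed CPM at 20 h was 3.08, 3.01 and 3.10 times that at 0 h, against 2.81 times in WT cells.

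Held against WT cells at 20 h, no member passed the test in any CD5 or CD6 genotype, at an adjusted or an unadjusted p below 0.05 (edgeR). The share of all genes called was itself small, 0.0434% for Cd5-/-Cd6-/- and 0.0186% for Cd5-/- as for Cd6-/- cells. At the unadjusted p, 742, 723 and 541 of 32290 genes passed in Cd5-/-Cd6-/-, Cd5-/- and Cd6-/- cells. Cdk1 was at 198, 214 and 260 CPM in Cd5-/-, 184, 190 and 198 CPM in Cd6-/- and 198, 220 and 271 CPM in Cd5-/-Cd6-/- libraries, against 181, 186 and 187 CPM in WT libraries. The libraries of Cd5-/- and Cd5-/-Cd6-/- cells all lay above the WT ones, and the differences did not pass the test (0.28 ± 0.24 and 0.31 ± 0.24, SE). Top2a was at 494, 482 and 264 CPM in Cd5-/-, 526, 414 and 248 CPM in Cd6-/- and 537, 474 and 310 CPM in Cd5-/-Cd6-/- libraries, against 487, 421 and 227 CPM. Mki67 was at 35.9, 56.0 and 10.0 CPM, 41.3, 29.6 and 7.29 CPM and 43.0, 50.0 and 15.4 CPM in the same order, against 44.0, 42.1 and 10.0 CPM. In all 4 genotypes library 3 was the lowest for both genes, and the genotypes overlapped throughout.

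The median log2 difference from WT cells at 20 h was 0.21 for Cd5-/-Cd6-/- cells, 0.11 for Cd5-/- cells and 0.02 for Cd6-/- cells. The largest single difference was that of Ube2c in Cd5-/-Cd6-/- cells (0.51 ± 0.31). No member was called between Cd5-/-Cd6-/- and Cd5-/- cells at 20 h (0.0279% of all genes), between Cd5-/-Cd6-/- and Cd6-/- cells (0.0465%) or between Cd5-/- and Cd6-/- cells (0.102%). None passed at an unadjusted p below 0.05 either, where 480, 766 and 986 of 32290 genes did in the same order.

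At 0 h and 4 h, too, no member was called between a CD5 or CD6 genotype and WT cells. The backgrounds were 0.0619% at 0 h and 0.0743% at 4 h for Cd5-/-, 0% and 0.00310% for Cd6-/-, and 0.0248% and 0.0434% for Cd5-/-Cd6-/- libraries. The differences of the response over time were not called for any member either, against 0.00310% of all genes for Cd5-/- at 4 h and 0.00310% at 20 h, 0% and 0.00310% for Cd6-/-, and 0% and 0% for Cd5-/-Cd6-/-. At an unadjusted p below 0.05, 4 members were higher in Cd6-/- cells at 4 h, and in Cd5-/-Cd6-/- cells 3 were higher at 0 h and 5 at 4 h. In either direction 885 of 32290 genes passed for Cd6-/- at 4 h, and for Cd5-/-Cd6-/- 594 at 0 h and 891 at 4 h. For the response over time in libraries labelled Cd5-/-, 6 members passed downward at 4 h (median −0.56) and 1 upward at 20 h (median 0.29). In those labelled Cd6-/-, 2 passed upward at 4 h, and no member passed in the other responses. In the same order 667, 739 and 734 of 32290 genes passed in either direction.

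The 4 h libraries of Cd5-/- cells came nearest to a difference. All 40 members, which are not independent replicates, had a log2 difference from WT cells below 0, with a median of −0.70. At an unadjusted p below 0.05, 21 members passed, where 1096 of 32290 genes did in either direction. The smallest adjusted p of a member was 0.0578 (edgeR). The lowest log2 differences were those of Cdc25c (−2.19 ± 0.75), Mki67 (−1.63 ± 0.54) and Anln (−1.48 ± 0.41). The median member was at 1.04, 1.599 and 1.56 CPM in the Cd5-/- libraries and at 4.25, 2.19 and 1.72 CPM in the WT libraries, so that every Cd5-/- library lay below every WT library, the nearest pair by little. Against their own 0 h libraries, 24 members were lower in libraries labelled Cd5-/- at 4 h (11.3% of all genes), against 4 in those labelled Cd6-/- (10.2%) and 9 in Cd5-/-Cd6-/- cells (9.66%), though as stated the difference of these responses was not called for any member. The erythroid sum was also lower in the 4 h libraries of Cd5-/- cells, at 230, 626 and 779 CPM against 2022, 1089 and 1178 CPM in WT libraries, and so was the B cell sum, at 37.8, 38.9 and 50.8 CPM against 82.9, 64.4 and 200.3 CPM. The part of these cells in the lower values was not tested. The count of members called lower in Cd5-/- cells at 4 h was 0 as reported. It was 7 without both 0 h libraries that went against their labels and 1 with the replicate number as a block. It was 14 without replicate 2, 18 without replicate 3, and 4 without library 3 of the Cd5-/- cells at 4 h. The share of all genes called under these alternatives was not counted.

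**Figure D3:**
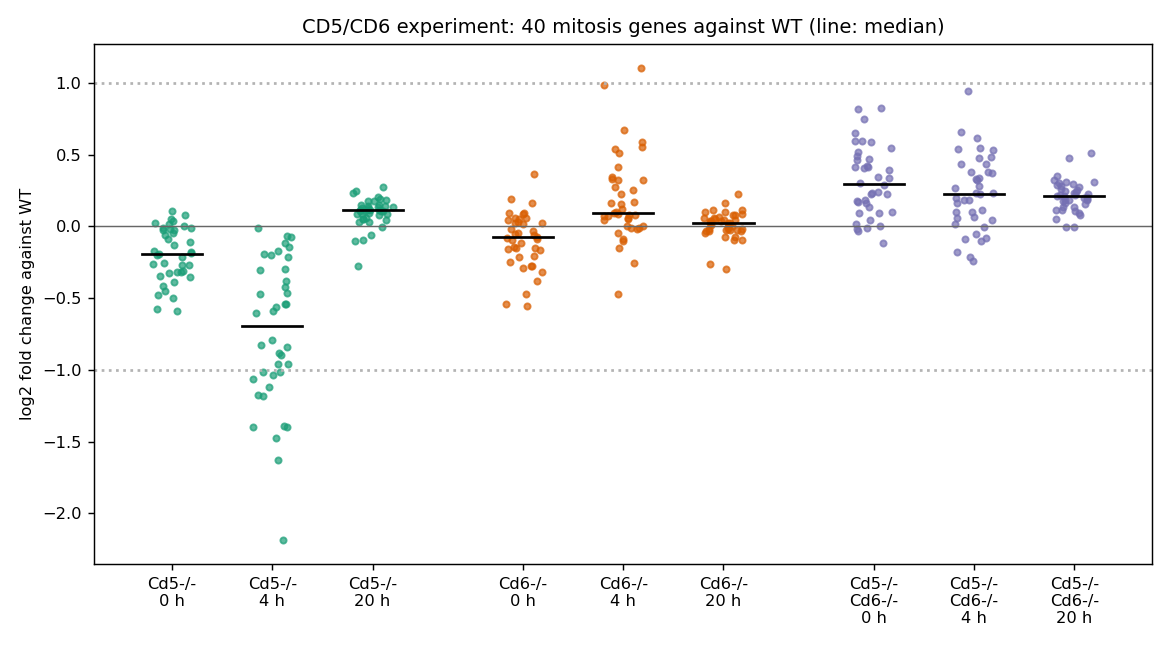
Log2 difference from WT cells from the CD5/CD6 experiment for each of the 40 mitosis genes at 0, 4 and 20 h in Cd5-/-, Cd6-/- and Cd5-/-Cd6-/- cells, 1 point per gene with the median as a line. All points of Cd5-/- cells at 4 h lie below 0 (median −0.70), whereas the 20 h medians lie between 0.02 and 0.21, and no point was called.

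In Lat-/- cells the mitosis genes stayed far below their level in WT cells. At 20 h, 37 of 40 members were lower in Lat-/- than in WT cells and 3 were higher (12.3% and 12.1% of all genes), with a median log2 difference of −4.58, against 0.03 over all genes averaging at least 10 counts. For all 40 members the 3 Lat-/- libraries did not overlap the 3 WT libraries. The share of all genes without overlap was not counted, so this count is not particular to these genes. In the same comparison 9777 of 27780 genes had an adjusted p below 0.05 (edgeR). The lowest were Bub1 (−6.74 ± 0.36), Aurkb (−6.09 ± 0.27) and Birc5 (−6.02 ± 0.31), and the smallest differences among the 37 were those of Ndc80 (−1.32 ± 0.20), Kif23 (−1.43 ± 0.22) and Incenp (−1.62 ± 0.18).

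Cdk1 stood at 2.12, 2.08 and 4.12 CPM in Lat-/- libraries at 20 h, against 115, 119 and 107 CPM in WT libraries (−5.35 ± 0.22, adjusted p = 4.3e-123, edgeR). Ccna2 stood at 0.759, 0.223 and 4.58 CPM against 104, 102 and 80.1 CPM, and Ccnb1 at 0.0506, 0.445 and 0.799 CPM against 8.60, 8.15 and 7.07 CPM. Library 3 was the highest of the Lat-/- libraries for all 3 genes and still far below WT. Top2a stood at 4.75, 2.45 and 9.97 CPM against 291, 272 and 214 CPM (−5.50 ± 0.20), and Mki67 at 0.405, 0.148 and 0.715 CPM against 22.1, 14.7 and 8.13 CPM (−5.15 ± 0.39). Ccnb2 stood at 0.101, 0.0742 and 0.421 CPM against 4.41, 4.61 and 4.82 CPM. None of these genes came within reach of a WT library.

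Among the kinases, Aurkb stood at 0.556, 0.186 and 2.06 CPM in Lat-/- libraries at 20 h against 65.6, 67.2 and 57.7 CPM in WT libraries, and Plk1 at 1.06, 0.965 and 1.05 CPM against 15.9, 15.1 and 13.6 CPM. Aurka differed less, at 3.34, 2.97 and 4.63 CPM against 24.3, 23.8 and 22.9 CPM (−2.70 ± 0.25). Birc5 stood at 0.303, 0.260 and 1.22 CPM against 40.0, 40.5 and 36.8 CPM, and Kif11 at 0.253, 0.186 and 0.336 CPM against 13.3, 13.6 and 9.10 CPM. Cdc20, Smc2 and Incenp, which were detected well at rest, were lower than in WT cells by smaller amounts (−2.63 ± 0.23, −2.41 ± 0.17 and −1.62 ± 0.18). Cdc20 stood at 5.51, 3.56 and 7.06 CPM against 32.4, 35.4 and 31.6 CPM, Smc2 at 29.3, 20.9 and 23.9 CPM against 138, 141 and 115 CPM, and Incenp at 18.4, 15.4 and 15.2 CPM against 54.3, 51.4 and 45.3 CPM.

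Cdc25b, Cenpa and Smc4 were the 3 members higher in Lat-/- cells at 20 h. Cdc25b rose in Lat-/- libraries from 44.9, 42.4 and 42.9 CPM at 0 h to 57.9, 64.1 and 119 CPM at 4 h and 157, 272 and 184 CPM at 20 h, while WT libraries went from 61.3, 46.9 and 54.7 CPM to 22.3, 28.1 and 78.5 CPM and 20.9, 19.4 and 21.0 CPM (Lat-/- against WT at 20 h 3.32 ± 0.17, adjusted p = 7.2e-85, edgeR). Cenpa rose in Lat-/- libraries from 18.3, 17.6 and 20.7 CPM to 47.5, 54.2 and 60.1 CPM and 51.6, 48.9 and 43.8 CPM, and stood at 18.5, 17.8 and 19.4 CPM in WT libraries at 20 h (1.37 ± 0.17). Smc4 was at 500, 435 and 445 CPM, 568, 618 and 576 CPM and 639, 626 and 427 CPM in Lat-/- libraries, with no call over time, and at 295, 254 and 221 CPM in WT libraries at 20 h (1.14 ± 0.15). All Lat-/- libraries of 20 h lay above all WT ones for the 3 genes.

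**Figure D4:**
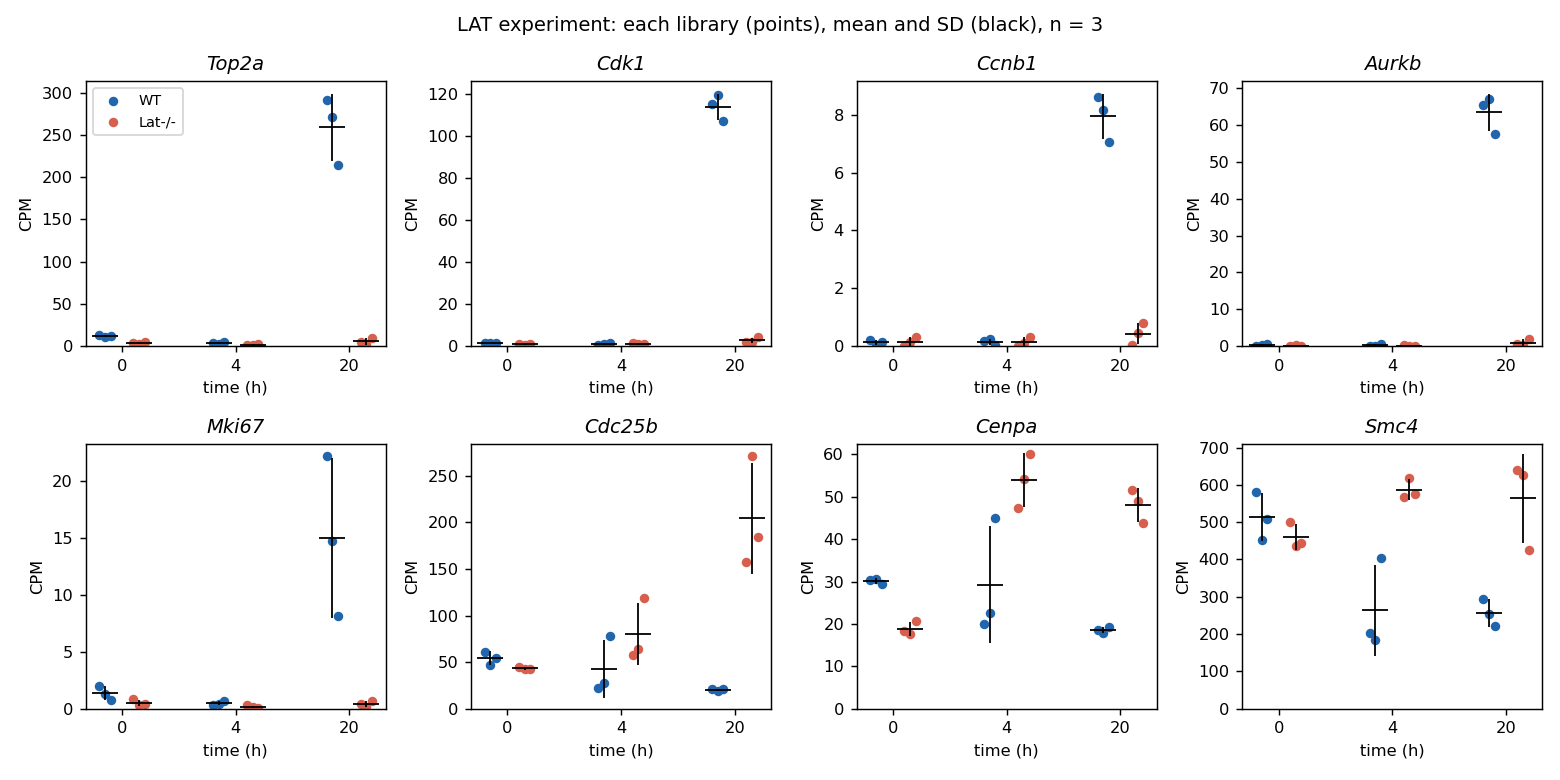
CPM (linear axes) of 8 mitosis genes in each library of the LAT experiment at 0, 4 and 20 h, WT in blue and Lat-/- in red, with the mean and SD of 3 libraries in black. At 20 h the WT libraries of Cdk1 (107 to 119 CPM) lie far above the Lat-/- libraries (2.08 to 4.12 CPM), and for Cdc25b, Cenpa and Smc4 the order is the opposite.

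The responses over time were also tested against each other. From 0 h to 20 h the response of 35 members was lower in Lat-/- than in WT cells and that of 3 was higher (9.35% and 10.1% of all genes). The lowest differences were those of Ttk (−5.70 ± 0.96), Nuf2 (−5.69 ± 0.54) and Bub1 (−5.37 ± 1.17), and the 3 higher ones were Cdc25b (3.65 ± 0.22), Cenpa (2.05 ± 0.24) and Smc4 (1.29 ± 0.21). Ndc80 (−0.41 ± 0.29) and Cdc25c, which had 0 counts in Lat-/- libraries at 0 h, were not called.

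Lat-/- cells did respond over time, in fewer members than WT cells. From 0 h to 20 h, 12 members were higher and 1 lower, where 2.14% and 2.07% of all genes were, and the median was 0.64. The 12 were Aurkb (3.07 ± 0.46), Kif4 (2.40 ± 0.72), Ncapg (2.37 ± 0.43), Cdc25b (2.24 ± 0.16), Ccna2 (2.18 ± 0.31), Bub1 (2.15 ± 0.67), Kif2c (1.98 ± 0.54), Ube2c (1.80 ± 0.56), Cdk1 (1.76 ± 0.26), Cenpa (1.35 ± 0.17), Ndc80 (1.28 ± 0.22) and Spc24 (1.11 ± 0.34), and the lower one was Kif23 (−1.73 ± 0.22). Much of this count rested on 1 library. Ccna2 had 15, 6 and 109 counts and Aurkb 11, 5 and 49 counts in the 3 Lat-/- libraries of 20 h, and library 3 also had the highest level of Il2ra, which encodes the IL-2 receptor alpha chain induced on activated T cells (18.5, 7.61 and 44.6 CPM). Lat was also highest in library 3, at 11.7, 9.91 and 17.2 CPM in the same order, as were Cd5 and Cd6. The part of this in the count was not tested. Without library 3, 4 members were higher and 2 lower. From 4 h to 20 h, 13 members were higher and 0 lower in Lat-/- cells (2.00% and 2.10% of all genes), and 5 and 1 without library 3. Kif23 fell with little spread, from 20.8, 16.9 and 17.1 CPM at 0 h to 5.92, 6.57 and 4.73 CPM at 4 h and 5.31, 5.08 and 6.06 CPM at 20 h. WT cells had Kif23 back at 16.2, 16.2 and 11.9 CPM by then.

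At 4 h, 3 members were higher and 4 lower in Lat-/- cells than at 0 h (3.08% and 3.62% of all genes). The higher ones were Ndc80 (1.80), Cenpa (1.51) and Nusap1 (1.34), and the lower ones Kif23 (−1.67), Top2a (−1.46), Birc5 (−1.38) and Ttk, which had 3, 1 and 4 counts at 0 h and 0 counts in all 3 libraries at 4 h. Against WT cells at 4 h, 2 members were higher, Smc4 (1.16 ± 0.15) and Ndc80 (1.09 ± 0.21), and 9 were lower, with backgrounds of 5.51% and 6.23%. The 9 were Mki67, Top2a, Ccna2, Ccnb2, Ttk, Kif11, Ube2c, Tpx2 and Ncaph. The response to 4 h was higher in Lat-/- than in WT cells for 5 members, Ndc80 (2.01 ± 0.30), Cenpa (1.55 ± 0.24), Smc4 (1.31 ± 0.21), Cdc25b (1.22 ± 0.22) and Cdk1 (1.15 ± 0.40), and lower for 1, Ttk (4.37% and 4.34% of all genes). Ndc80 was at 4.79, 4.10 and 5.21 CPM in Lat-/- libraries at 0 h and at 17.0, 15.8 and 16.2 CPM at 4 h, against 9.72, 8.10 and 8.82 CPM and 6.40, 4.72 and 11.7 CPM in WT libraries. Library 3 of the WT cells at 4 h stood apart, with Smc4 at 403 CPM against 204 and 184 CPM, Cdc25b at 78.5 CPM against 22.3 and 28.1 CPM and Il2ra at 510 CPM against 855 and 835 CPM in the other two.

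Before stimulation 5 members were lower in Lat-/- than in WT cells and none was higher (0.814% of all genes were lower): Anln (−2.19 ± 0.60), Tpx2 (−2.06 ± 0.40), Top2a (−1.62 ± 0.18), Mki67 (−1.39 ± 0.39) and Cdca8 (−1.03 ± 0.25). Top2a was at 3.55, 2.98 and 5.00 CPM in Lat-/- and at 12.7, 10.8 and 12.2 CPM in WT libraries, with no overlap. The others rested on few reads. Markers of gamma delta and of regulatory or memory T cells were lower in the same Lat-/- libraries. The sum of the 2 CD8 T cell markers was not, at 32.6 to 35.7 CPM in Lat-/- and 30.3 to 35.0 CPM in WT libraries. The 5 gamma delta T cell markers, all detected and all with a lower mean, summed to 14.5 to 16.5 CPM in Lat-/- and 31.7 to 45.2 CPM in WT libraries. The 6 regulatory or memory T cell markers summed to 122 to 143 CPM and 151 to 244 CPM, with Foxp3, the defining factor of regulatory T cells, at means of 21.3 and 55.8 CPM and Cd44 alone of them higher in Lat-/- cells (73.7 and 54.2 CPM). Their part in the result was not tested. Median differences in the LAT experiment were −0.77 at 0 h and −0.19 at 4 h, and −0.73 and −0.16 without the members at 0 counts in all libraries of a group.

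The counts of related genes are to be read against 12.3% of all genes higher and 17.3% lower at 20 h in the CD5/CD6 experiment, and 10.8% and 12.7% in the LAT experiment. Among 30 other genes of the spindle, kinesins and cytokinesis, 27 were higher in WT cells at 20 h than at 0 h in the CD5/CD6 experiment and 28 in the LAT experiment, with none lower and medians of 3.02 and 3.81. Of 29 other kinetochore and checkpoint genes 20 and 18 were higher (medians 2.77 and 2.99), and of 15 other genes of mitotic entry and exit 13 and 13 were higher (medians 3.42 and 3.45). Pttg1, securin, was the 1 lower gene of these lists, in the LAT experiment (−1.17). All 34 genes of DNA replication were higher in both experiments (medians 3.62 and 3.38).

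The anaphase-promoting complex and the list of cohesin and other condensin subunits had counts nearer those shares. Of 15 subunits of the anaphase-promoting complex 5 and 1 were higher, with medians of 0.64 and 0.43. Of 14 genes of cohesin and other condensin subunits 4 and 3 were higher and 2 and 2 lower, with a median of −0.05 in both experiments. Ncapg2, a subunit of condensin II, rose (4.72 in the CD5/CD6 experiment), as did Ncapd2 of condensin I (1.65), and the cohesin loaders Nipbl (−1.82) and Mau2 (−1.14) fell. Among 22 regulators of transcription in G2 and M phase, 10 and 8 were higher and 1 and 1 lower. In the CD5/CD6 experiment Mybl2, the MYB partner of the MuvB complex, rose by 4.96, E2f7 by 4.47, E2f1 by 4.44 and Foxm1 by 2.82 on the log2 scale, while Rbl2, the p130 protein of the resting-cell repressor, fell (−2.50).

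In Lat-/- cells at 20 h, 28 of the spindle genes, 20 of the kinetochore genes, 14 of the entry and exit genes and all 34 replication genes were lower than in WT cells, beside 12.3% of all genes lower and 12.1% higher. Pttg1 (1.55) was the 1 higher gene of these lists. Of the G2 and M phase regulators 8 were lower and 2 higher, Rbl2 (1.97) and Lin54 (1.21), a count of higher genes near the background, and 1 subunit of the anaphase-promoting complex was lower. The medians were −4.53 for the spindle genes, −2.94 for the kinetochore genes, −3.41 for entry and exit and −3.21 for replication, beside −0.59 for the anaphase-promoting complex and 0.02 for cohesin and other condensin subunits.

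**Figure D5:**
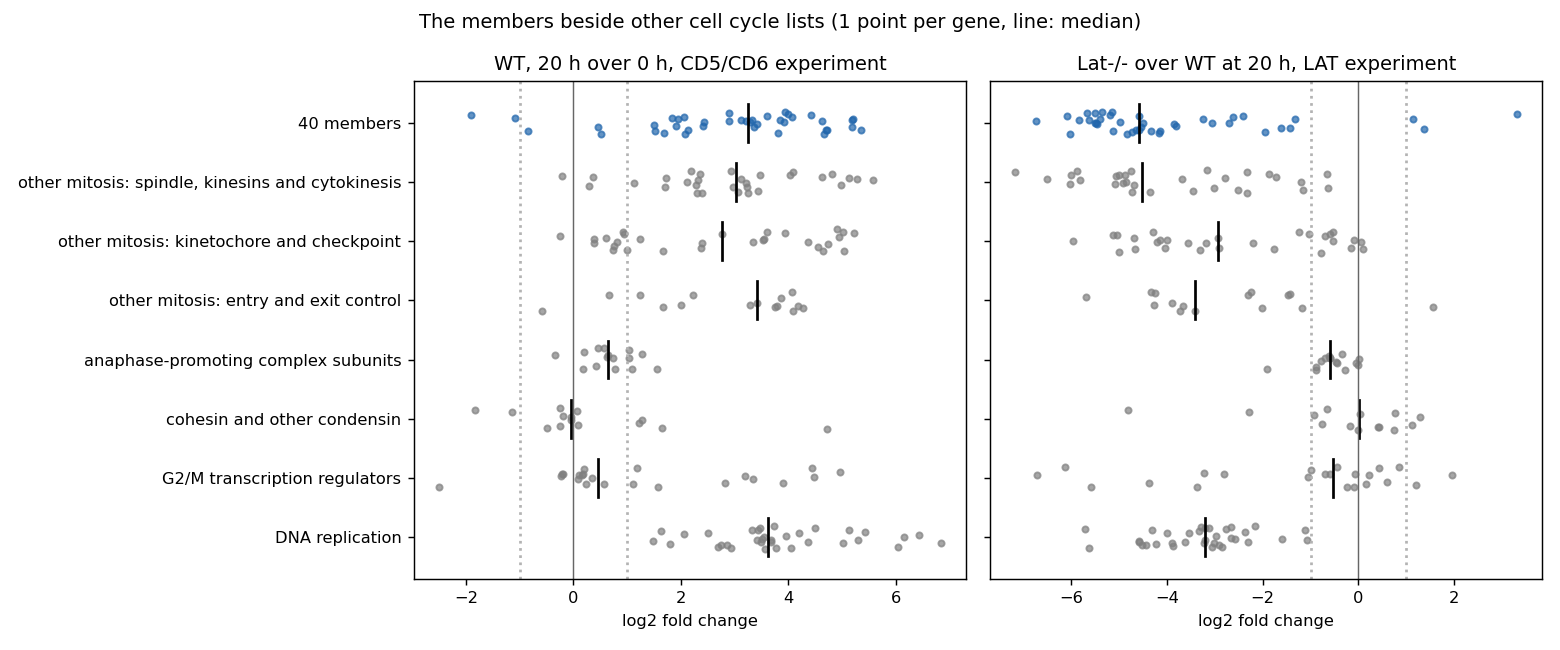
Log2 fold change of the 40 mitosis genes and of 7 related gene lists, 1 point per gene with the median as a line, from 0 h to 20 h in WT cells from the CD5/CD6 experiment (left) and between Lat-/- and WT cells at 20 h (right), with dotted lines at a fold change of 2. The medians of the 40 genes were 3.25 and −4.58, and those of cohesin and other condensin subunits were −0.05 and 0.02.

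Reads shared with other genes touch a few of these values. Exons of 13 of the 40 members overlap another annotated gene, 1 of them (Top2a, 1.35% of its exon bases) on the same strand, with the largest shares at Kif20a, which shares 29.3% with Cdc23, and Ube2c, which shares 22.8% with Tnnc2. The libraries keep the strand, but whether counting used it is not given in the sources used here.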

How the data were processed

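RNA of 54 libraries was sequenced by the authors as single 50-base reads from stranded mRNA libraries, trimmed, mapped to GRCm38 with STAR, and counted per gene with featureCounts (base calling with bcl2fastq 2.17.1.14, per the submitters' processing notes). The deposited values are raw counts in 1 table per experiment, not normalized or pooled, and all columns were assigned to samples. Of 55385 identifiers 55144 matched a symbol.

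Each table was fitted apart in R 4.3.3 with edgeR 4.0.16 (quasi-likelihood test, TMM factors, 1 coefficient per genotype and time, all libraries sharing the spread, genes with at least 1 read) with limma 3.58.1, and Benjamini-Hochberg adjustment over all genes tested. The test (in place of the DESeq2 test of the study's methods) was tried on simulated counts. Alternatives were DESeq2 1.42.0, other scaling factors, a filter on low counts, the adjusted p alone, the replicate number as a block, the compared groups alone, and leaving out libraries. CPM use the TMM-scaled total, RPKM also the summed exon length, and lists are described by counts and medians. Every member was assigned to a role, and values by library are given for 17 of them, for the 3 largest and smallest changes and for members called against the others. The members, lists and comparisons were chosen with earlier results of these data known.

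Pairing by replicate number was checked by correlating the deviations of same-numbered libraries from their group means over genes averaging at least 10 counts. It was taken to hold where all 3 correlations were above 0.1, as for WT cells at 4 h and 0 h of the CD5/CD6 experiment (0.208 to 0.457) and for Cd5-/- and WT cells at 4 h (0.157 to 0.411). In the LAT experiment it held only for Lat-/- and WT cells at 0 h (0.217 to 0.329). The labels say nothing of what a number marks. Within each group, no pair of libraries was alike enough to be a duplicate. Pairs from different groups were not checked for this.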

Additional observations from a re-analysis of the deposited data

Results flagged for a closer look

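The results listed here are differences between Lat-/- and WT cells from the LAT experiment in the response of a single mitosis gene to stimulation, each past the thresholds in edgeR's test of the difference itself (log2 scale, 3 libraries per group, adjusted over all genes). Values below 0 mean a smaller increase or a larger decrease in Lat-/- cells.

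For the response from 0 h to 20 h, the largest differences were those of Ttk (−5.70 ± 0.96, SE), Nuf2 (−5.69 ± 0.54), Bub1 (−5.37 ± 1.17) and Birc5 (−5.14 ± 0.47). Ttk rested on 2, 4 and 3 counts in WT and 3, 1 and 4 counts in Lat-/- libraries at 0 h. Bub1 rested on 2, 2 and 9 and on 0, 2 and 2 counts. Of the cyclins, their kinase and the markers of cycling cells, Ccna2 differed by −4.76, Cdk1 by −4.63, Ccnb1 by −4.49, Top2a by −3.88, Mki67 by −3.76 and Ccnb2 by −3.08. Among the other kinases and the kinesins, Kif2c differed by −4.67, Kif11 by −4.52, Aurkb by −4.34, Bub1b by −3.88, Kif20a by −3.49, Plk1 by −2.94, Kif4 by −2.80, Aurka by −2.61 and Kif23 by −1.64. At the kinetochore and in the passenger complex, Spc24 differed by −4.43, Cdca8 by −3.62, Cenpf by −3.55, Cenpe by −3.35, Spc25 by −3.00 and Incenp by −1.60. In the remaining roles, Ncaph differed by −4.19, Ncapg by −3.88, Tpx2 by −3.78, Nusap1 by −3.35, Ube2c by −3.00, Anln by −3.00, Prc1 by −2.74, Smc2 by −2.48, Cdc20 by −2.38 and Mad2l1 by −2.10. Cdc25b (3.65), Cenpa (2.05) and Smc4 (1.29) differed the other way. The difference of Kif4 had a standard error of 1.10 and an adjusted p of 0.042 (edgeR), near the threshold.

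For the response from 0 h to 4 h, Ndc80 (2.01), Cenpa (1.55), Smc4 (1.31), Cdc25b (1.22) and Cdk1 (1.15) differed upward and Ttk (−5.32) downward. The fitted value of Ttk rests on 0 counts in all 3 Lat-/- libraries at 4 h and is no bound of the change. For Cdk1, Lat-/- libraries had 0.938, 0.699 and 0.813 CPM at 0 h and 1.70, 0.763 and 1.14 CPM at 4 h, and WT libraries 1.37, 1.28 and 1.40 CPM and 0.654, 0.779 and 1.28 CPM.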

How the results depend on the processing

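Counts of members called are given here as count reported and count under the alternative. Shares of all genes called were not counted under any alternative, including those that left out libraries. The counts higher and lower at 20 h in WT cells, and between Lat-/- and WT cells at 20 h, moved by less than 1.5 times under every alternative run, apart from the lower counts named here. With the adjusted p alone in place of both thresholds, lower counts from 0 h to 4 h in the CD5/CD6 experiment were 16 in Cd5-/-Cd6-/- cells, 15 in WT cells and 10 in Cd6-/- cells, the lower count of Cd6-/- cells from 0 h to 20 h was 3, lower counts from 4 h to 20 h were 1 each in Cd5-/-Cd6-/-, WT and Cd6-/- cells and 2 in WT cells from the LAT experiment, and 6 members were higher in Lat-/- than in WT cells at 4 h. With DESeq2, 2 members were lower from 0 h to 20 h in Cd6-/- cells, 1 in WT cells from the LAT experiment, and 2 in Lat-/- against WT cells at 0 h. RLE factors gave 2 from 0 h to 20 h in Cd6-/- cells and 1 in WT cells from the LAT experiment. Library totals alone gave lower counts of 11 (WT) and 15 (Cd5-/-Cd6-/-) from 0 h to 4 h, 3 (Cd6-/-) from 0 h to 20 h, and 0 in WT cells from the LAT experiment from 4 h to 20 h. With edgeR's filterByExpr, Lat-/- cells had 6 higher members from 0 h to 20 h and 2 lower from 0 h to 4 h, 2 and 5 were lower in Lat-/- than in WT cells at 0 h and 4 h, 3 higher and 0 lower in the 4 h response, and 1 lower from 0 h to 20 h in Cd5-/-Cd6-/- cells and 1 in WT cells from the LAT experiment. Fits of the compared groups alone gave 7 higher from 0 h to 20 h and 2 lower from 0 h to 4 h in Lat-/- cells, 2 lower in Lat-/- than in WT cells at 0 h, 0 lower in the 4 h response, 1 lower from 0 h to 20 h in Cd5-/-Cd6-/- cells, and 0 lower from 4 h to 20 h in WT cells from the LAT experiment. The replicate number as a block gave 1 member lower in Cd5-/- than in WT cells at 4 h, and in WT cells from the LAT experiment 1 lower from 0 h to 20 h and 0 from 4 h to 20 h, and moved no other count by 1.5 times. Without both 0 h libraries that went against their labels, 7 members were lower in Cd6-/- cells from 0 h to 4 h, 2 from 0 h to 20 h, and 7 in Cd5-/- than in WT cells at 4 h. The last count was 4 without library 3 of Cd5-/- cells at 4 h, an alternative chosen after seeing the data. Without library 3 of Lat-/- cells at 20 h, 4 members were higher and 2 lower from 0 h to 20 h and 5 higher and 1 lower from 4 h to 20 h, and Ube2c changed sign (−0.32), although leaving out replicate 3 of every group left it positive (1.94). Kif23 changed sign in WT cells from the LAT experiment from 0 h to 20 h without replicate 3 (−0.25 to 0.09 over the 3 replicates left out in turn, −0.09 as reported). The summed level at 20 h over 0 h, taken without Smc4 (chosen after seeing the data), was 6.46 in WT, 7.46 in Cd5-/-, 6.88 in Cd6-/-, 6.53 in Cd5-/-Cd6-/-, 6.83 in WT of the LAT experiment and 2.06 in Lat-/- cells. The cause of these changes was not tested.

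Leaving out 1 replicate number at a time gave ranges for the counts as follows. Lower counts from 0 h to 4 h ranged from 6 to 13 in WT, 3 to 9 in Cd6-/-, 5 to 10 in WT of the LAT experiment and 2 to 6 in Lat-/- cells, and higher counts from 0 to 1 in Cd6-/- cells and 0 to 1 in WT cells from the LAT experiment. Lower counts from 0 h to 20 h ranged from 1 to 3 in Cd6-/-, 1 to 2 in Cd5-/-Cd6-/- and 1 to 2 in WT cells from the LAT experiment, where those from 4 h to 20 h ranged from 0 to 1. In Lat-/- cells higher counts ranged from 5 to 14 from 0 h to 20 h and from 7 to 15 from 4 h to 20 h, with 0 to 1 lower. Against WT cells, lower counts ranged from 0 to 4 at 0 h and 0 to 18 at 4 h in Cd5-/- cells, and 0 to 3 for the 4 h response. In Cd6-/- cells higher counts ranged from 0 to 2 at 4 h and from 0 to 1 for the 4 h response, and in Cd5-/-Cd6-/- cells from 0 to 3 at 0 h and 0 to 8 at 4 h, with 0 to 1 lower. In Lat-/- cells 2 to 6 were lower at 0 h, 0 to 6 higher and 4 to 10 lower at 4 h, and 0 to 1 lower for the 4 h response.

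Members with few reads set a limit: Ttk, Cdc25c, Bub1, Ccnb1, Aurkb, Kif11, Kif2c, Kif4, Cenpf, Ube2c, Tpx2, Anln and Ncapg had 0 to 8 counts in Lat-/- libraries at 0 h and 4 h, so changes of theirs there were barely detectable at this depth. Of these, Aurkb, Kif4, Ncapg, Bub1, Kif2c and Ube2c were among the 12 members called higher in Lat-/- cells at 20 h than at 0 h.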

Other observations

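At 20 h, library 3 stood at one end of its group for many of the mitosis genes, at the low end in 4 groups and at the high end in Lat-/- cells. It had the lowest CPM of the 3 WT libraries of the CD5/CD6 experiment at 20 h for 32 of the 40 members, of the Cd5-/- libraries for 25, of the Cd6-/- libraries for 29 and of the Cd5-/-Cd6-/- libraries for 17, and of the WT libraries of the LAT experiment for 35. In Cd5-/-Cd6-/- cells it was also the highest for 16, and in Lat-/- cells it was the highest for 30 and the lowest for 5. At earlier times library 3 was the highest of the Cd5-/-Cd6-/- libraries for 37 members at 0 h and 31 at 4 h. It was the highest of the WT libraries of the LAT experiment for 28 at 4 h, and in the remaining earlier groups for 4 to 25. How often library 3 was lowest or highest among all genes was not counted. Across the 40 members, the log2 ratio of library 3 to the mean of libraries 1 and 2 had a Spearman correlation with the exon length of −0.65 in Cd5-/-Cd6-/- cells, −0.55 in Cd5-/- cells, −0.47 in Cd6-/- cells and −0.44 in WT cells, and of −0.56 in the WT libraries of the LAT experiment. In the other groups, Lat-/- cells included, it lay between −0.53 and 0.12. Genes are not independent replicates and no test was made.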
